A study of Drosophila melanogaster with 20 samples.

Results

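The 4 control lines of the study were compared with each other, to find which transcripts were bright in the normal eye-antennal imaginal disc of *Drosophila melanogaster* and which differed between the lines beyond the spread of the 2 arrays of a line. The control arrays were chosen by their label and number 8 of the 20 arrays of the series, 2 biological repeats for each of atoGal4, Gal4/7, UASato and cantonS. The atoGal4 line carries the Gal4 insertion NP6558 and Gal4/7 is another Gal4 driver line, Gal4 being a yeast activator that switches on any transgene placed behind its UAS sites. UASato carries the transcription factor gene *ato* behind such sites, and cantonS is a wild-type strain. None of the 8 arrays is from a larva that carried a driver and a UAS transgene together. The cells in which Gal4/7 is active are not described in the sources used here. The larvae of all 4 lines grew at 18 °C and, from early in the third instar, spent 24 hours at 28 °C before the discs were dissected and their total RNA was hybridized to Affymetrix arrays. The labels call the samples separate repeats but do not say whether these came from separate vials, so the p-values measure the spread between these samples.

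The eye-antennal disc is the larval epithelium that forms the compound eye, the antenna and part of the head capsule. A furrow crosses the eye part during the third instar, and behind it *ato* selects the R8 photoreceptors that recruit the remaining cells of each ommatidium. The eye field is set by *toy*, *ey*, *so*, *eya* and *dac*, and the antennal part by genes such as *Dll*. The disc also carries glia, which move into it along the optic stalk, and blood cells and fat body lie against it in the larva.

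Levels are log2 values made by the authors with RMA, so that 1 unit is a 2-fold change. Where several probe sets name a gene, its level is that of the brightest, and 11983 genes could be measured. Differences among the lines were tested with the F test of limma over the 4 lines, and a gene was called when its Benjamini-Hochberg adjusted p was under 0.05 and its highest and lowest line means differed by more than 1.5-fold. Over all genes 0.835% were called, 11.3% were under an unadjusted p of 0.05 and 9.08% had line means more than 2-fold apart. No detection calls were used, so at dim probe sets a difference of signals may understate the difference in transcript. In bulk tissue, fewer cells of a type and less RNA per cell cannot be told apart.

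The arrays did not group by line. Only 2 of the 8 arrays, UASato replicate 1 and cantonS replicate 1, correlated best with the other array of their own line. Gal4/7 replicate 2 stood apart, with a mean correlation of 0.96 with the 7 others, against 0.976 to 0.982 for those. The 2 arrays of a line differed by a median of 0.192 in atoGal4, 0.131 in Gal4/7, 0.158 in UASato and 0.17 in cantonS on the log2 scale. Line means differed by medians of 0.12 to 0.168 over the 6 pairs of lines. The line means average 2 arrays each, so these medians and those within a line are not on the same footing. The number of genes more than 2-fold apart on the 2 arrays of a line was 376 in atoGal4, 710 in Gal4/7, 419 in UASato and 504 in cantonS.

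Ribosomal protein genes held the top of the brightness order. Of the 20 brightest genes over the 8 arrays, 18 encode cytoplasmic ribosomal proteins, and the other two are *Hsc70-4*, a constitutive chaperone of the Hsp70 family, and *Lsp2*, a larval storage protein that the fat body secretes into the blood. *RpL41* was brightest at 14.44 ± 0.087 (SD, n = 8), followed by *RpL15* at 14.32 ± 0.038 and *RpL37A* at 14.20 ± 0.070. Brightness depends on each probe set's own binding as well as on the transcript, so the order is one of signal and the levels of different genes cannot be set against each other. The 18 ribosomal protein genes lay within a narrow band on every array, while *Lsp2* was between 13.52 in cantonS replicate 2 and 14.49 in UASato replicate 1.

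**Figure D1:**
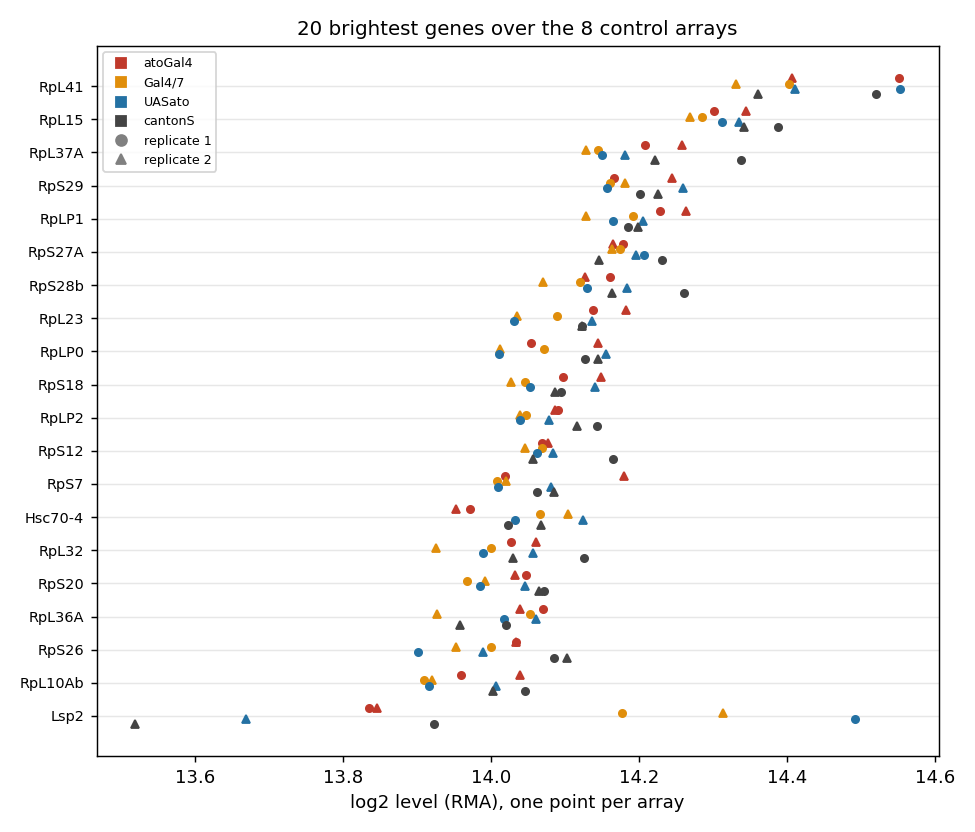
Level of the 20 brightest genes on each control array (log2, RMA), with 1 point per array, coloured by line and shaped by replicate. The ribosomal protein genes and *Hsc70-4* vary little between lines, while *Lsp2* spans 13.52 to 14.49.

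Among the 100 brightest genes were 29 of the 41 measured cytoplasmic ribosomal protein genes, 5 of 6 cytoskeletal genes such as *tsr* (cofilin) and *betaTub56D*, and 4 of 45 translation factors such as *eEF5* and *eIF4A*. They also held 3 of 4 fat body genes, *Lsp2*, *Fbp1* and *Fbp2*, 2 of 47 odorant-binding protein genes and 3 of 75 oxidative phosphorylation genes. None of these 100 passed the test among lines at an adjusted p under 0.05 in limma, against 0.835% of all genes, so this 0 is near that share. Under an unadjusted p of 0.05 were 3, against 11.3% of all genes. The median range of their line means was 0.14, against 0.28 over all genes. Only *CG5953*, *Fbp1* and *Fbp2* had line means more than 2-fold apart. When the 100 brightest genes were listed for each line on its own, 84 genes were on all 4 lists. When the genes were cut by brightness into 3 equal classes, the middle class held 58 calls, the brightest 32 and the dimmest 10.

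The 37 measured markers of eye and antenna had a median level of 9.58, against 7.18 over all genes. Over the 8 arrays *toy* averaged 11.91, *eya* 11.41, *dac* 11.04 and *so* 9.91, and among later photoreceptor genes *gl*, a zinc finger factor of the furrow, averaged 11.18 and *elav*, a neuronal RNA-binding protein, 10.25. Of the antennal genes *danr* averaged 10.99 and *Dll* 9.58. Other members of these lists were dimmer, such as *boss* at 6.51, *ct* at 6.99 and *ro* at 7.41. Of the 37 measured eye and antennal markers, 0 were called by limma among the lines and 6 were under an unadjusted p of 0.05, where 0.835% and 11.3% of all genes were, and the median range was 0.35, against 0.28 for all genes. At these shares a count of 0 among so few genes is no result about them. *ato* measured 9.41 and 10.01 in atoGal4, 9.80 and 9.77 in Gal4/7, 9.71 and 9.96 in UASato and 9.27 and 9.91 in cantonS. Its range over the line means was 0.24 and its adjusted p was 0.95, so no difference in *ato* among the lines was detectable with 2 arrays each. *sens*, a zinc finger factor downstream of *ato* in R8, measured 8.70 and 8.42 in atoGal4, 8.41 and 8.10 in Gal4/7, 8.52 and 8.60 in UASato and 7.98 and 8.56 in cantonS, with an adjusted p of 0.80. None of the 5 measured genes on either side of *ato* on chromosome arm 3R was called in limma, and 1 of these 10 was under an unadjusted p of 0.05, where 0.835% and 11.3% of all genes were. That gene was *CG9630*, the nearest on 1 side, with an adjusted p of 0.15.

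Among markers of other larval tissues, the fat body and salivary gland lists were bright, with median levels of 13.0 and 11.6. The medians were 8.52 for hemocytes, 8.17 for muscle and 4.85 for midgut, against 7.18 over all genes. Many of these markers followed single arrays more than lines. The 8 measured salivary gland genes had a median level of 14.0 and 5.45 on the 2 arrays of atoGal4, 13.7 and 5.86 on those of Gal4/7, 14.0 and 13.2 on those of UASato and 12.6 and 13.8 on those of cantonS. The glue protein gene *Sgs4* measured 13.99 and 4.78 in atoGal4, 13.73 and 5.35 in Gal4/7, 14.32 and 13.17 in UASato and 11.84 and 13.41 in cantonS. It was below the array median on replicate 2 of both driver lines and high on the 6 other arrays, array medians lying between 5.4 and 5.51. The digestive protease gene *betaTry* measured 5.52 and 13.63 in Gal4/7 and lay between 5.21 and 5.59 on the 6 arrays of the other lines. On Gal4/7 replicate 2, 288 genes were more than 2-fold above all 7 other arrays, among them the proteases *epsilonTry* and *Jon25Bii* and the peritrophic matrix gene *Peritrophin-15a*. Other members of the midgut list stayed dim on that array, such as *Jon44E* at 4.26, *Jon66Ci* at 4.97 and *zetaTry* at 3.75. The muscle myosin light chain gene *Mlc1* measured 12.71 and 9.22 in Gal4/7, against 9.03 to 10.72 elsewhere, and *Prm* (paramyosin) 11.01 and 7.22, against 7.20 to 8.30. Not all of the muscle list did so. *Mlc2* measured 6.87 and 5.40 in Gal4/7 and was highest on cantonS replicate 1 at 7.41, and *sls* measured 9.21 and 8.95 in Gal4/7.

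Across the 5 lists of fat body, hemocyte, muscle, salivary gland and midgut markers, 23 of 38 genes had line means more than 2-fold apart, against 9.08% of all genes, but 0 were called by limma and 3 were under an unadjusted p of 0.05, against 0.835% and 11.3% of all genes. The larger of the within-line differences had a median of 1.87 over these 38 genes, against 0.34 over all genes. *Fbp1* of the fat body list measured 13.33 and 11.49 in atoGal4, 14.25 and 14.05 in Gal4/7, 14.34 and 11.84 in UASato and 13.53 and 11.37 in cantonS. *Fbp2* and *apolpp* were also lower on replicate 2 of atoGal4, UASato and cantonS. *Lsp2* was not lower there in atoGal4, at 13.84 and 13.85. In Gal4/7, *Lsp2* and *apolpp* were higher on replicate 2, at 14.31 and 12.48, and *Fbp1* was not. The hemocyte list included the crystal cell prophenoloxidases *PPO1* and *PPO2*. *PPO2* measured 9.21 and 8.15 in atoGal4, 10.78 and 11.59 in Gal4/7, 9.41 and 9.85 in UASato and 7.79 and 7.16 in cantonS, so no 2 lines overlapped, and its adjusted p of 0.078 did not pass the threshold. *PPO1* was also highest on Gal4/7 replicate 2 and lowest on cantonS replicate 2, at 10.86 and 5.42. Not all of the hemocyte list did so. *He* was highest on cantonS replicate 1 at 10.31. *Pxn* was highest on Gal4/7 replicate 2 at 9.30 but lowest on UASato replicate 1 at 7.65. *crq* lay between 8.83 and 9.55. The part of the markers of these 5 lists in the differences among lines was not tested beyond these values.

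**Figure D2:**
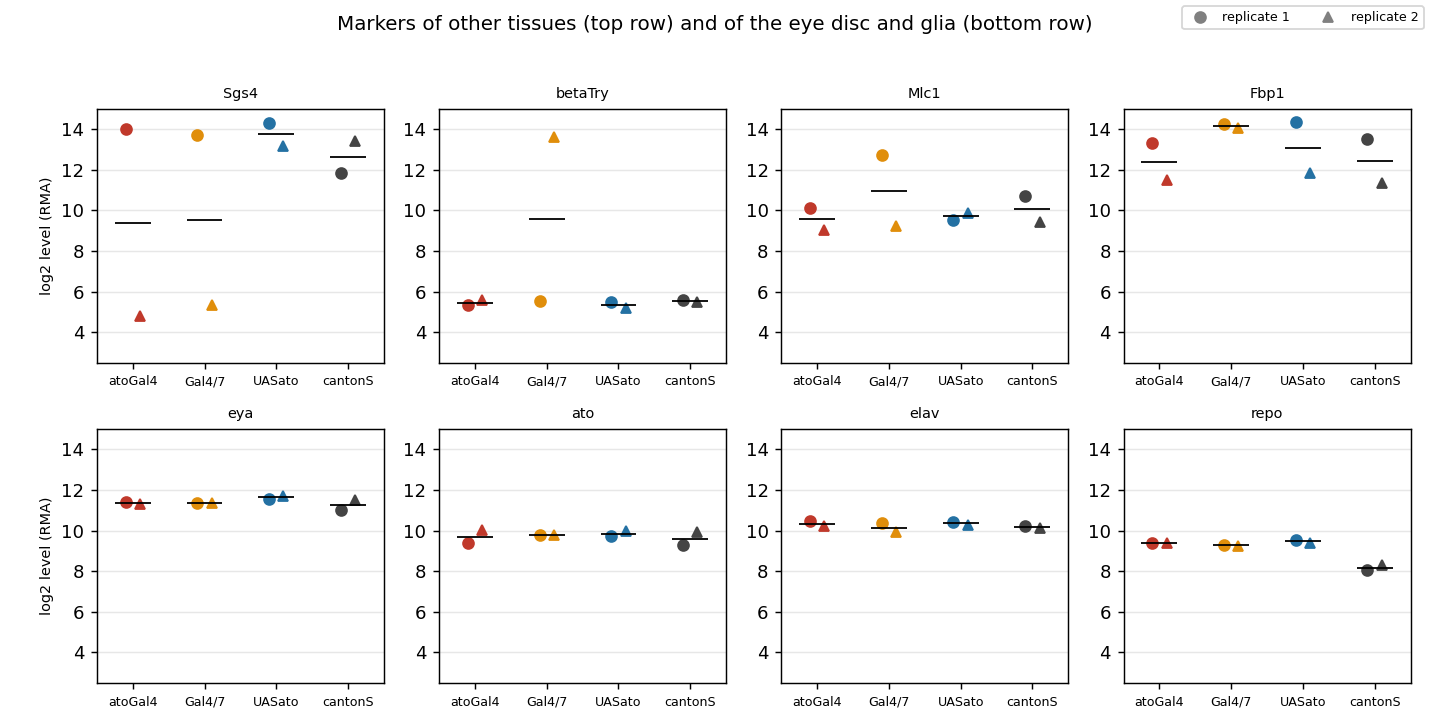
Level (log2, RMA) of 8 markers on the 2 arrays of each line, with circles for replicate 1, triangles for replicate 2 and bars for line means. *Sgs4*, *betaTry* and *Mlc1* (salivary gland, midgut and muscle) separate single arrays of a line. For *eya*, *ato* and *elav* no difference among the lines was called, and *repo* is lower in cantonS.

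Of the 11983 genes, 100 were called among the 4 lines, which is 0.835% of those tested, and 1354 were under an unadjusted p of 0.05. The called genes had a median range of 1.84 on the log2 scale. In 44 of them the highest and lowest line means were more than 4-fold apart, and in 8 more than 16-fold. For all 100, the lines could be divided into 2 sets whose arrays did not overlap, which held for 38.5% of all genes. In 73 called genes a single line lay apart from the other 3: 14 for atoGal4, 20 for Gal4/7, 17 for UASato and 22 for cantonS. In the other 27, 2 lines lay apart from 2. Over all genes, 3.29% lay apart as higher and 1.91% as lower in atoGal4, and 2.53% and 8.35% in Gal4/7. These shares were 3.2% and 2.97% in UASato and 5.57% and 2.99% in cantonS. A fit with 1 array left out has a single array for that line and no spread within it. Without Gal4/7 replicate 1, the array left for Gal4/7 is replicate 2, which stood apart from all others. A call kept only in that fit is therefore not read as support. The number called depended on single arrays, with 40 and 38 genes when either atoGal4 array was left out, 340 without Gal4/7 replicate 1, 21 and 23 without either UASato array and 44 without cantonS replicate 1. Without Gal4/7 replicate 2 the count was 88, of which 48 were among the 100. The call of 15 genes held whichever array was left out, and 11 were called in none of these fits.

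**Figure D3:**
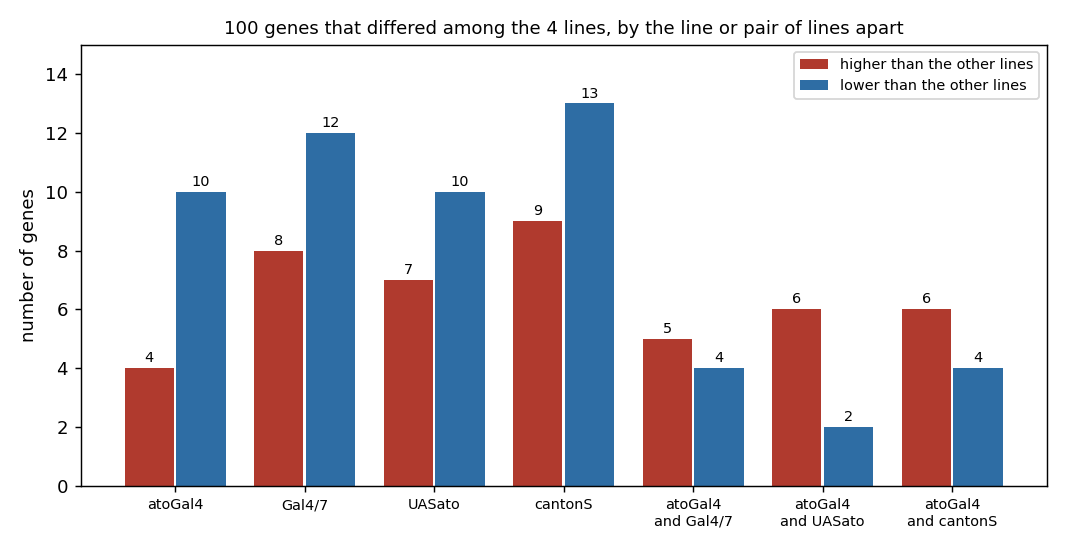
Number of called genes (y axis) by the line, or pair of lines, whose arrays lay apart from all others (x axis), with red bars for higher and blue bars for lower levels in the line or pair named. Lower levels outnumber higher ones for each single line, with 13 against 9 genes for cantonS and 10 against 4 for atoGal4. Over all genes, called or not, lower against higher was 358 against 667 for cantonS and 229 against 394 for atoGal4. It was 356 against 383 for UASato and 1001 against 303 for Gal4/7.

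In Gal4/7, 8 genes were higher and 12 lower than in every other line. *Hsc70-2*, a member of the Hsp70 chaperone family, measured 3.42 and 3.58 in atoGal4, 8.8 and 9.0 in Gal4/7, 3.67 and 3.59 in UASato and 4.23 and 3.73 in cantonS. It was far above the dim levels of the other lines on both Gal4/7 arrays, with an adjusted p of 0.00069 in the F test of limma. *synr* measured 3.47 and 3.80 in atoGal4, 8.54 and 8.98 in Gal4/7, 3.59 and 3.64 in UASato and 3.50 and 3.46 in cantonS, at an adjusted p of 0.00069. *CG31157*, the next measured gene after *Hsc70-2* on arm 3R, measured 3.32 and 3.51 in atoGal4, 7.00 and 6.86 in Gal4/7, 3.28 and 3.42 in UASato and 3.36 and 3.82 in cantonS. Among the control lines, these 3 genes were dim in all but Gal4/7. Outside the controls, *Hsc70-2* and *CG31157* averaged 8.94 and 6.82 on the arrays of *ato*-/- discs, and *synr* averaged 3.73. *tut*, an RNA-binding protein known from spermatogonia, was at 6.46 on both Gal4/7 arrays and between 3.35 and 4.37 on the 6 others. Its adjusted p was 0.014, and it was not called without Gal4/7 replicate 2, UASato replicate 1 or UASato replicate 2, with values up to 0.062.

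Among the genes lower in Gal4/7, *CG18343* measured 9.81 and 10.05 in atoGal4, 5.31 and 5.34 in Gal4/7, 9.56 and 9.43 in UASato and 9.44 and 9.59 in cantonS, with an adjusted p of 0.00051. *PGRP-LE*, the receptor for bacterial peptidoglycan that feeds into the Imd immune pathway, measured 9.08 and 9.17 in atoGal4, 5.51 and 5.11 in Gal4/7, 9.02 and 9.29 in UASato and 9.20 and 9.29 in cantonS (adjusted p = 0.0012). Both genes were bright and steady in 3 lines and dim in Gal4/7. Of the other 6 peptidoglycan recognition genes measured, 0 were called by limma and 0 were under an unadjusted p of 0.05, where 0.835% and 11.3% of all genes were. The Gal4/7 arrays were also lower for *Osi6*, a member of the Osiris family of insect membrane proteins, at 7.38 and 7.41 in atoGal4, 4.55 and 4.78 in Gal4/7, 7.40 and 7.12 in UASato and 6.48 and 7.05 in cantonS. It was the only one of 24 Osiris genes called, where 0.835% of all genes were, and its adjusted p of 0.012 was up to 0.064 without any of the atoGal4 or UASato arrays. *tko*, a mitochondrial ribosomal protein gene, and *dia*, a formin that nucleates actin filaments, were lower in Gal4/7 by 1.19 ± 0.12 (SE) against UASato and by 1.09 ± 0.11 (SE) against atoGal4. Both lost their call in most fits with 1 array left out, with adjusted p-values up to 0.083 and 0.097.

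In atoGal4, 4 genes were higher and 10 lower than in the other lines. *Ir76a*, an ionotropic receptor of olfactory neurons in the antenna, measured 7.24 and 7.52 in atoGal4, 4.50 and 4.45 in Gal4/7, 4.26 and 4.48 in UASato and 4.29 and 4.69 in cantonS. Both atoGal4 arrays were above the dim levels of the other lines, at an adjusted p of 0.0035. The hairpin RNA gene *hpRNA:CR32207*, from whose folded transcript small interfering RNAs are cut, measured 5.54 and 4.91 in atoGal4, 9.35 and 9.47 in Gal4/7, 9.74 and 9.86 in UASato and 9.07 and 8.59 in cantonS (adjusted p = 0.0035). Its neighbour on arm 3L, *hpRNA:CR33940*, measured 6.41 and 6.03 in atoGal4, 9.11 and 8.97 in Gal4/7, 9.21 and 9.01 in UASato and 9.45 and 8.65 in cantonS. Both hairpin genes were thus low in atoGal4 alone, and probes to such repeated sequence may take signal from either. The call of *hpRNA:CR33940* was lost without any of the atoGal4 or UASato arrays, with adjusted p-values up to 0.16.

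Also lower in atoGal4 were *Cad74A*, a cadherin, at 7.48 and 8.12 in atoGal4, 9.98 and 10.12 in Gal4/7, 10.24 and 10.30 in UASato and 9.77 and 10.27 in cantonS, and the pseudouridine synthase gene *Pus7*, at 5.25 and 5.19 in atoGal4 and 6.72 to 7.13 on the 6 other arrays. *tau*, a microtubule-binding protein of neurons, measured 7.49 and 7.29 in atoGal4 and between 8.44 and 8.69 on the 6 others. The arrays of atoGal4 did not overlap with the rest for any of these 3. The call of *Pus7* was lost without either atoGal4 array (adjusted p up to 0.076). *Cad74A* and *tau* kept theirs only without Gal4/7 replicate 1, with adjusted p-values up to 0.12 and 0.14. Of the 14 genes apart in atoGal4, 8 lie on arm 3L, against 3 of 20 for Gal4/7, 2 of 17 for UASato and 7 of 22 for cantonS. Arm 3L held 19.6% of the measured genes and 29 of the 100 called ones.

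In UASato, 7 genes were higher and 10 lower than in the other lines. *Cyp12d1-d*, a mitochondrial cytochrome P450 known from insecticide resistance, measured 3.61 and 3.30 in atoGal4, 3.42 and 3.81 in Gal4/7, 6.66 and 6.54 in UASato and 3.25 and 3.42 in cantonS (adjusted p = 0.0031, or 0.052 without UASato replicate 1). It has a near-identical tandem copy whose signal its probe set may share. *CG32572* on the X chromosome measured 4.44 and 4.59 in atoGal4, 4.48 and 4.22 in Gal4/7, 7.36 and 7.69 in UASato and 4.26 and 4.57 in cantonS. *Mgstl*, a microsomal glutathione transferase, was at 11.36 and 11.52 in UASato, above the 9.93 to 10.18 of the driver lines and the 10.73 and 10.52 of cantonS. *msl-3*, a subunit of the complex that raises transcription of the male X chromosome, measured 7.29 and 7.02 in atoGal4, 7.12 and 7.02 in Gal4/7, 8.36 and 8.55 in UASato and 7.21 and 7.52 in cantonS. Both UASato arrays were above the rest for *Mgstl* and *msl-3*, and their calls at adjusted p-values of 0.020 and 0.043 were lost in 5 and 7 of the 8 fits with 1 array left out (up to 0.14 and 0.27), kept for *Mgstl* only without a Gal4/7 array or cantonS replicate 2 and for *msl-3* only without Gal4/7 replicate 1.

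The 2 genes of chromosome 4 that were called are neighbours, and both were lowest in UASato. *Zip102B*, a zinc transporter of the ZIP family, measured 10.42 and 10.15 in atoGal4, 10.39 and 10.54 in Gal4/7, 5.34 and 5.47 in UASato and 8.34 and 8.96 in cantonS (adjusted p = 0.0018). *Rnf11*, a RING finger protein, measured 10.34 and 9.87 in atoGal4, 9.07 and 8.75 in Gal4/7, 5.77 and 4.38 in UASato and 7.40 and 7.08 in cantonS (adjusted p = 0.025). The driver lines were high, cantonS was intermediate and UASato was low for both. A second probe set of *Rnf11* gave the same order of UASato below cantonS below the drivers and was called, whereas the brightest one lost its call without any of the atoGal4 or cantonS arrays, with adjusted p-values up to 0.13. *CG5326* on 3R was also low in UASato, at 9.30 and 9.54 in atoGal4, 9.03 and 8.94 in Gal4/7, 6.30 and 6.89 in UASato and 9.19 and 9.18 in cantonS. *blanks*, a double-stranded RNA-binding protein of the testis, measured 7.53 and 7.98 in atoGal4, 6.72 and 6.19 in Gal4/7, 5.40 and 4.99 in UASato and 7.04 and 7.24 in cantonS. Its adjusted p of 0.035 was under 0.05 without either Gal4/7 array and above it, up to 0.17, without any other array.

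In cantonS, 9 called genes were higher and 13 lower than in the 3 transgenic lines. *mthl8*, a G protein-coupled receptor of the Methuselah family, measured 4.08 and 4.03 in atoGal4, 3.84 and 3.83 in Gal4/7, 4.07 and 3.89 in UASato and 8.37 and 8.41 in cantonS. It had the smallest adjusted p of all genes, 0.00023, and all 6 arrays of the transgenic lines were dim. *vis*, a homeodomain protein needed in spermatogenesis, measured 3.69 and 3.49 in atoGal4, 3.45 and 3.40 in Gal4/7, 3.77 and 3.51 in UASato and 6.70 and 6.69 in cantonS (adjusted p = 0.00094). The transgenic lines did not differ from each other by more than 0.4 for either gene, and *vis* has a near-identical neighbouring copy, *achi*, whose transcripts its probes may also bind. *CG8768* ran the other way, at 8.45 and 8.39 in atoGal4, 8.46 and 8.32 in Gal4/7, 8.27 and 8.28 in UASato and 4.89 and 4.68 in cantonS (adjusted p = 0.00063).

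**Figure D4:**
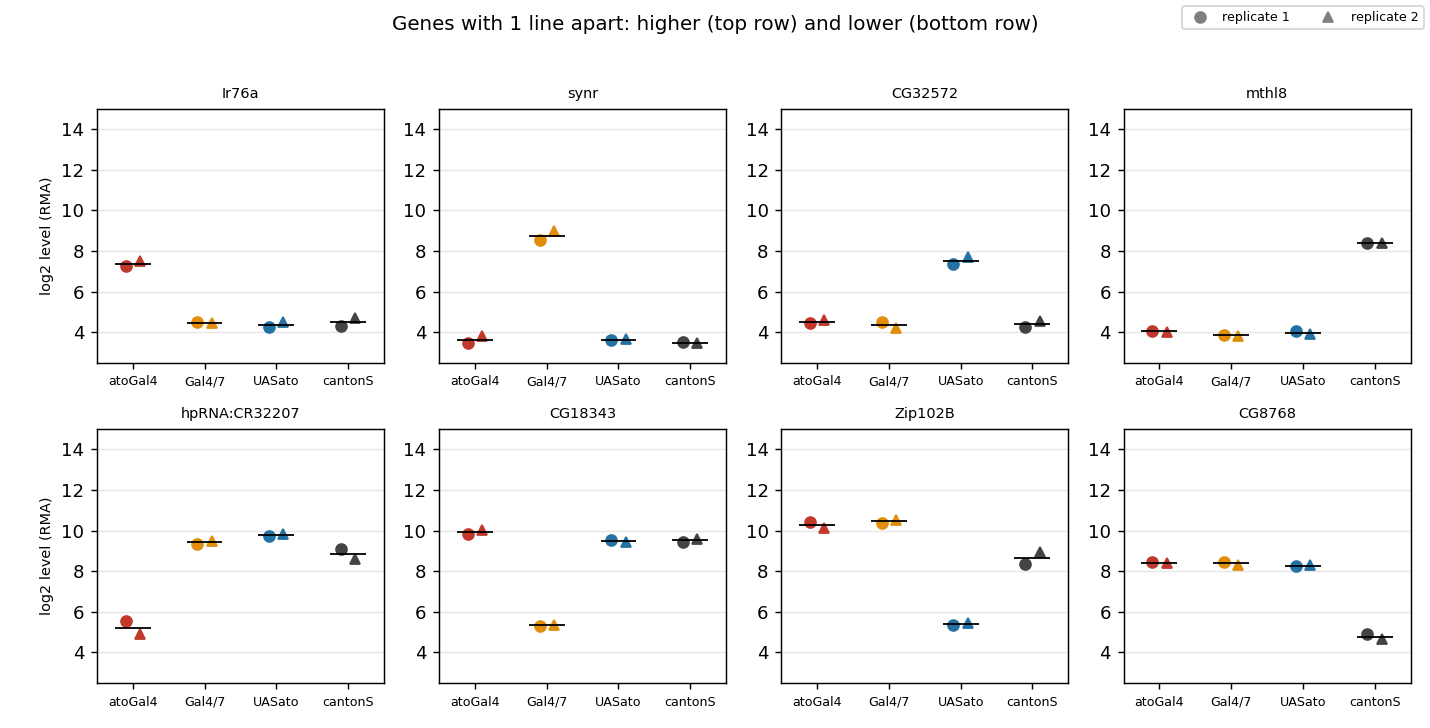
Level (log2, RMA) of the genes with the widest gap between a line and the 6 arrays of the others, with circles for replicate 1, triangles for replicate 2 and bars for line means. From left to right the columns hold genes apart in atoGal4, Gal4/7, UASato and cantonS, with the line apart higher in the top row and lower in the bottom row.

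Several genes of detoxification were higher in all 3 transgenic lines than in cantonS. *Cyp6a17*, a cytochrome P450 known for its part in temperature preference, measured 7.83 and 6.41 in atoGal4, 8.47 and 8.48 in Gal4/7, 8.25 and 8.16 in UASato and 3.98 and 3.87 in cantonS. *GstE1*, a glutathione transferase, measured 9.78 and 10.26 in atoGal4, 9.97 and 10.12 in Gal4/7, 9.48 and 9.84 in UASato and 7.70 and 7.24 in cantonS. *Ugt302K1*, a UDP-glycosyltransferase, measured 9.03 and 9.17 in atoGal4, 9.12 and 8.70 in Gal4/7, 8.35 and 7.90 in UASato and 6.79 and 6.14 in cantonS. For each of the 3, the cantonS arrays lay below all others. Their adjusted p-values of 0.024, 0.019 and 0.034 were up to 0.15, 0.092 and 0.14 with 1 array left out, and each lost its call without either UASato or either cantonS array, *Cyp6a17* also without Gal4/7 replicate 2, *GstE1* without atoGal4 replicate 2 and *Ugt302K1* without either atoGal4 array. *Cyp6a17* has a close neighbouring paralog, so its signal may be shared. With *Cyp12d1-d*, 4 of the 163 genes found by the symbol patterns of the P450, glutathione transferase, UDP-glycosyltransferase and carboxylesterase lists were called, or 2.45%, against 0.835% of all genes, and their median range was 0.55, against 0.28. The pattern for glutathione transferases takes symbols that begin with Gst, so *Mgstl*, which was called, is outside this count.

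*Adgf-A*, which breaks down extracellular adenosine, also lay below the transgenic lines in cantonS, at 8.32 and 8.05 in atoGal4, 7.71 and 8.25 in Gal4/7, 8.04 and 7.56 in UASato and 4.58 and 5.06 in cantonS (adjusted p = 0.013, or up to 0.090 without any array but those of Gal4/7). *repo*, the homeodomain factor that defines glia, measured 9.40 and 9.39 in atoGal4, 9.29 and 9.26 in Gal4/7, 9.54 and 9.41 in UASato and 8.06 and 8.29 in cantonS. It was 1.10 ± 0.11 (SE) higher in Gal4/7 than in cantonS and its adjusted p was 0.017, up to 0.090 without any atoGal4 or UASato array or cantonS replicate 1. Among the other 5 glial genes *moody*, a receptor of the blood-brain barrier, measured 9.46 and 9.61 in atoGal4, 9.48 and 9.34 in Gal4/7, 9.45 and 9.26 in UASato and 9.19 and 9.30 in cantonS, and *nrv2*, a sodium pump subunit of glia, was highest in cantonS at 10.95 and 10.75. None of the 5 was called or under an unadjusted p of 0.05 in limma, where 0.835% and 11.3% of all genes were.

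Where 2 lines lay apart from 2, the widest gap was that of *CG6912*, at 9.01 and 9.27 in atoGal4, 5.49 and 5.12 in Gal4/7, 8.90 and 9.64 in UASato and 5.28 and 5.75 in cantonS (adjusted p = 0.0064). *wnd*, a kinase of the axon injury response, followed the same division at a smaller distance, with 10.28 and 10.56 in atoGal4, 8.33 and 8.54 in Gal4/7, 10.34 and 10.40 in UASato and 8.44 and 8.76 in cantonS (adjusted p = 0.0086, or up to 0.057 without either UASato array). *Hrb87F*, an RNA-binding protein of the hnRNP A family, measured 12.71 and 12.57 in atoGal4, 9.14 and 8.34 in Gal4/7, 9.59 and 8.32 in UASato and 11.51 and 11.70 in cantonS. Its adjusted p of 0.035 was under 0.05 only without Gal4/7 replicate 1 or UASato replicate 1 (up to 0.18 without another array).

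Both driver lines were higher than UASato and cantonS for *Hr3*, a nuclear receptor that the steroid ecdysone induces. It measured 7.38 and 7.40 in atoGal4, 7.91 and 8.27 in Gal4/7, 6.39 and 6.65 in UASato and 5.89 and 5.76 in cantonS, with an adjusted p of 0.011 that was up to 0.059 without atoGal4 replicate 2, UASato replicate 1 or cantonS replicate 1. Of the 14 genes of the ecdysone list it was the only one called, while 5 were under an unadjusted p of 0.05, against 0.835% and 11.3% of all genes, and the median range was 0.60, against 0.28. The medians of the list did not follow the order of *Hr3*, at 9.08 and 9.13 in atoGal4, 9.66 and 9.36 in Gal4/7, 9.70 and 9.28 in UASato and 9.27 and 9.12 in cantonS. The opposite division was that of *E(spl)m5-HLH*, a repressor that Notch induces, at 7.27 and 7.45 in atoGal4, 7.75 and 7.79 in Gal4/7, 8.27 and 8.32 in UASato and 8.21 and 8.34 in cantonS. It was called at an adjusted p of 0.039, which held in the fit without Gal4/7 replicate 1 alone (up to 0.16). None of the 12 other measured members of the *E(spl)* and *Brd* complexes was called by limma, where 0.835% of all genes were.

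Called genes of cuticle numbered 3 of 104, or 2.88%, against 0.835% of all genes. *Cpr97Ea* measured 8.29 and 8.69 in atoGal4, 7.31 and 7.17 in Gal4/7, 9.06 and 9.05 in UASato and 6.76 and 6.45 in cantonS, and its call was lost without either UASato array (adjusted p up to 0.066). *TwdlE* was lowest in cantonS, at 8.59 and 8.46, and *Cpr51A* lowest in UASato, at 10.68 and 10.88. *Cpr51A* was the only called gene among the 500 brightest, and it and *TwdlE* kept their calls only without Gal4/7 replicate 1, with adjusted p-values up to 0.11 and 0.12. In the housekeeping lists, 0 of 41 cytoplasmic ribosomal protein genes, 0 of 69 mitochondrial ones with a symbol that begins with mRp, which leaves out the called gene *tko*, 0 of 45 translation factor genes, 0 of 75 oxidative phosphorylation genes and 0 of 40 proteasome genes were called by limma, with 2, 12, 1, 4 and 0 under an unadjusted p of 0.05. Over all genes 0.835% were called and 11.3% were under that p, so a count of 0 in lists of these sizes is near that share. The median ranges of these lists lay between 0.14 and 0.29, against 0.28 over all genes.

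By chromosome arm the share of called genes was 0.544% of 2205 on 2L, 0.824% of 2428 on 2R, 1.24% of 2344 on 3L, 0.941% of 2974 on 3R, 0.481% of 1873 on X and 3.08% of 65 on chromosome 4. No 3 neighbouring measured genes were all called. Neighbouring pairs were *Hsc70-2* and *CG31157*, the hairpin genes, *Zip102B* and *Rnf11*, *RhoGAP71E* and *CG7650* on 3L, and *CG11170* and *CG11275* on 2R. The last 4 genes were called in at most 3 of the 8 fits with 1 array left out, *RhoGAP71E* and *CG11275* in none, with adjusted p-values up to 0.22. In all, 14 of the 100 called genes had another among the 5 measured genes on either side. More than 1 probe set was available for 19 of the 100, with 26 further probe sets, of which 4 were called and 17 had line means within 2-fold. A further probe set each of *mthl8*, *Rnf11*, *CG5326* and *CG7650* was called, while those of *aPKC*, *hts*, *whd*, *Mgstl* and *B4* were not, so for these the difference rests on a single probe set. Their calls were also lost in 2 to 7 of the 8 fits with 1 array left out, always without UASato replicate 1 or 2.

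For pairs of lines the counts of called genes were 42 for atoGal4 against cantonS (0.35%), 64 for Gal4/7 against cantonS (0.534%), 37 for UASato against cantonS (0.309%), 40 for atoGal4 against UASato (0.334%), 58 for Gal4/7 against UASato (0.484%) and 46 for atoGal4 against Gal4/7 (0.384%). The pairs share arrays, and their counts moved with single arrays as that of the F test did. For atoGal4 against cantonS 4 genes were called without cantonS replicate 1, and for Gal4/7 against cantonS 327 were called without Gal4/7 replicate 1.

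The 6 arrays of the crosses of the driver lines with UASato, 3 for each driver, share no array with the lines, so they show whether a difference between atoGal4 and Gal4/7 was found again. Larvae of both crosses carried a driver together with UASato, so line and driver action cannot be told apart there. Of the 46 genes called between the driver lines, 45 differed in the same direction between atoGal4 x UASato and Gal4/7 x UASato. The arrays of the crosses did not overlap for 24 of the 26 genes higher in atoGal4, against 8.16% of all genes in that direction, and for 17 of the 20 lower ones, against 9.45%. In limma, 11 and 10 of them were called in the same direction in the crosses, where 0.401% of all genes were called higher, 0.626% lower and 1.03% in either direction. The exception in sign was *Fie*, which averaged 6.70 in atoGal4 and 5.57 in Gal4/7, but 6.58 in atoGal4 x UASato and 7.28 in Gal4/7 x UASato (adjusted p = 0.066 in the crosses). Its call among the lines held only without Gal4/7 replicate 1 (adjusted p up to 0.11).

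The difference between the crosses was smaller than that between the lines for 44 of the 46 genes, with a median ratio of 0.408. The genes were chosen for a large difference between the lines, which favours a smaller one in other arrays. Both crosses also have UASato as a parent. The part of either in the smaller differences was not tested, so nothing is read from this count. *synr* averaged 3.59 in atoGal4 x UASato and 8.23 in Gal4/7 x UASato, dim and bright as in the driver lines themselves. *Hrb87F* averaged 11.60 in atoGal4 x UASato and 8.13 in Gal4/7 x UASato, a difference of 3.46 ± 0.13 (SE, adjusted p = 0.00027 in limma). *Hsc70-2* averaged 3.68 in atoGal4 x UASato and 7.94 in Gal4/7 x UASato and *Ir76a* 6.50 and 4.26. *CG18343* averaged 9.92 in atoGal4 x UASato and 8.59 in Gal4/7 x UASato, a difference of 1.32 ± 0.081 (SE), and *PGRP-LE* 9.17 and 8.10, a difference of 1.07 ± 0.13 (SE). Both Gal4/7 x UASato means were well above the dim Gal4/7 levels given before.

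**Figure D5:**
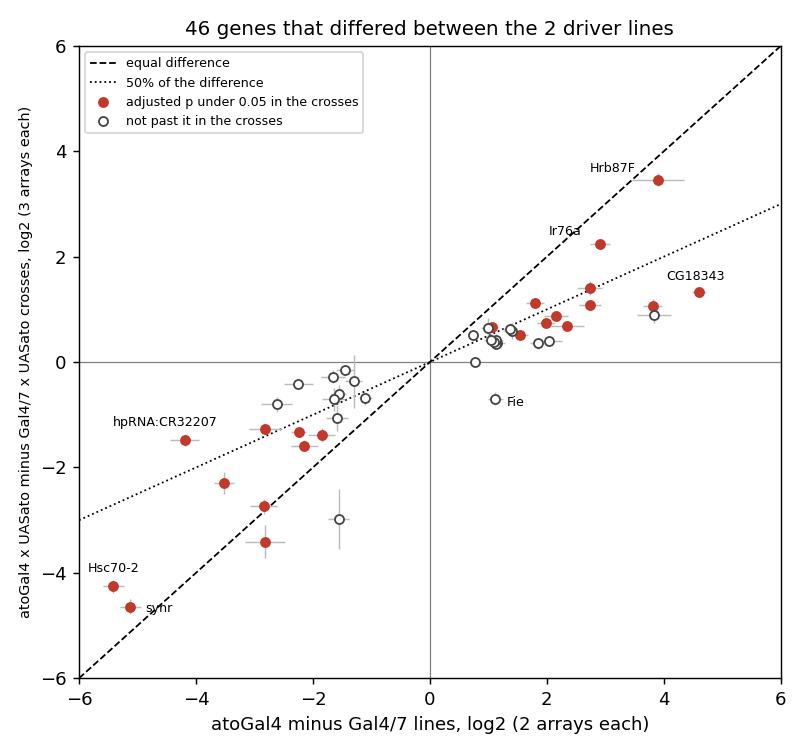
Difference of atoGal4 x UASato minus Gal4/7 x UASato (y axis, log2, 3 arrays each) against that of atoGal4 minus Gal4/7 (x axis, log2, 2 arrays each) for the 46 genes called between the driver lines, with bars for SE. All points but *Fie* have the same sign on both axes, the genes having been chosen by their values on the x axis.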

How the data were processed

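Eye-antennal discs of the third instar were profiled on Affymetrix Drosophila 2.0 arrays, 1 array per sample, and the deposited values are log2 signals that the authors made with RMA, which corrects background, normalizes by quantiles and summarises the probes of a set. Its version is not given in the sources used here. The number of arrays limits the precision. Of 18952 probe sets, 183 controls were left out, and p-values were adjusted over the other 18769. Each of 11983 genes took the level of the brightest of its probe sets, named through the platform annotation and a RefSeq table. Only the 8 control arrays entered the comparison of lines, with limma 3.58.1 in R 4.3.3 (lmFit and eBayes, the F test over 4 lines and 6 pairs). The crosses were fitted alone, and with the 2 driver lines for the interaction. The script was tested on simulated data. Tables were made with pandas 2.3.3 and numpy 2.4.6 and figures with matplotlib 3.10.9, under Python 3.11.15. Named genes come from the 20 brightest genes, for each line the 5 highest and 5 lowest called genes by their gap to the other arrays, the 5 called genes with the widest gap between pairs of lines, the 10 with the largest range, up to 4 members of each list, and *ato*, its neighbours and *sens*. *CG5953*, *Peritrophin-15a*, *tko*, *dia*, *tau*, *Mgstl*, *blanks*, *RhoGAP71E*, *CG11170*, *CG11275*, *aPKC*, *hts*, *whd*, *Fie*, *CG7054*, *e*, *Hsp68* and the further list members *Sgs4*, *PPO1*, *moody*, *nrv2*, *Jon44E*, *Jon66Ci*, *zetaTry*, *Mlc2*, *sls*, *boss*, *ct* and *ro* were named after their values were seen. The members, lists and alternatives were chosen with earlier results of these data known. Alternatives were a brightness filter, other probe sets, quantile normalization again, trend and robust variances, a fit of all arrays, the replicate number as a block, other fold limits and leaving out each array.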

Additional observations from a re-analysis of the deposited data

Results flagged for a closer look

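For 9 genes called among the lines, the atoGal4 minus Gal4/7 difference in the crosses with UASato, less that in the lines, passed the interaction test of limma at an adjusted p under 0.05. This interaction was -3.28 for *CG18343*, -2.93 for *CG6912*, -2.74 for *PGRP-LE*, -1.82 for *Fie*, -1.65 for *CG12880*, -1.49 for *CG7054*, -1.24 for *wnd* and -1.03 for *CG12863* on the log2 scale, and 2.71 for *hpRNA:CR32207*. In 8 of the 9 the crosses differed less than the lines in the same direction, and in *Fie* the direction turned. The atoGal4 and Gal4/7 arrays entered both the calls and the interaction, which favours smaller differences in the crosses. Both crosses also have UASato as a parent, and the part of either was not tested. Over all genes 10 passed (0.0835%), and that count was between 1 and 314 when single arrays were left out.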

How the results depend on the processing

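No result reversed. Of the 72 counts recomputed under other settings, 58 stayed within 1.5 times the reported one and 14 moved. The fit of all arrays also takes its spread from the *ato*-/- and atoGal4 x UASsens arrays and the crosses with UASato. A single fit of all 20 arrays called 380 genes among the lines, 117 for atoGal4 against cantonS, 243 for Gal4/7 against cantonS, 161 for UASato against cantonS, 122 for atoGal4 against UASato, 146 for Gal4/7 against UASato, 151 for atoGal4 against Gal4/7 and 48 for the interaction. Trend and robust variances called 66 for atoGal4 against cantonS, 57 for UASato against cantonS, 204 between the crosses and 40 for the interaction. A 2-fold limit left 75 between the crosses, and normalizing again gave 16 for the interaction. Leaving out 1 array gave 21 to 340 genes among the lines, 4 to 45 for atoGal4 against cantonS, 14 to 327 for Gal4/7 against cantonS, 10 to 48 for UASato against cantonS, 7 to 17 for atoGal4 against UASato, 11 to 303 for Gal4/7 against UASato, 14 to 311 for atoGal4 against Gal4/7, 24 to 239 between the crosses and 1 to 314 for the interaction. The cause of these shifts was not tested. The replicate numbers come from the sample titles. Deviations of same-numbered arrays correlated positively in all 6 pairs of lines, at 0.00352 to 0.288 and above 0.1 in 4, and of the genes over 2-fold apart within a line, replicate 1 was the higher array for 342 of 376 in atoGal4, 286 of 710 in Gal4/7, 326 of 419 in UASato and 394 of 504 in cantonS. With the replicate number as a block 109 genes were called, 77 of them among the 100. Over the 100 called genes, *ato* and *sens*, the call was lost in 44 of 495 values under other settings and in 468 of 816 with 1 array left out. *ato* and *sens* were not called at first, so their values could not count as lost. With 2 arrays a line, small differences are not detectable.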

Other observations

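Some genes differed widely between the 2 arrays of a line without following the lines. *e*, the ebony gene of cuticle pigmentation, measured 10.55 and 5.97 in atoGal4, 5.70 and 9.57 in Gal4/7, 5.84 and 6.74 in UASato and 5.21 and 5.29 in cantonS. The inducible chaperone gene *Hsp68* measured 10.01 and 8.68 in atoGal4, 8.46 and 6.80 in Gal4/7, 10.54 and 7.88 in UASato and 12.66 and 9.74 in cantonS. Replicate 1 was the higher array of all 4 lines for *Hsp68*, and *e* was high on 1 array of each driver line.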
